A study of Mus musculus with 16 samples.

Results

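The 4 murine B cell lymphomas whose titles carry the letter L were set against the 4 whose titles carry the letter E. Together they are all 8 tumours of the study, whose 16 records hold each tumour under 2 processings, and each tumour was counted once. Total RNA was measured on Illumina bead arrays. The L tumours were Wrn L1 and Wrn L2, of the genotype Eµ-Myc Wrn Δhel/Δhel, and Eµ-Myc L1 and Eµ-Myc L2, of the genotype Eµ-Myc. The E tumours were Wrn E3 and Wrn E6, of the genotype Eµ-Myc Wrn Δhel/Δhel, and Eµ-Myc E8 and Eµ-Myc E11, of the genotype Eµ-Myc. All 8 tumours carried the Eµ-Myc transgene, in which an enhancer of the immunoglobulin heavy chain locus, active in cells of the B lineage, drives the oncogene Myc. The 4 Wrn tumours also carried, on both copies, a Wrn allele deleted within the helicase domain of its protein, the one missing in Werner syndrome. The strain label was C57B6 for each tumour. The labels do not say what the letters stand for and give no age, sex, site or treatment, so the letters serve here as names only. The numbers of tumours of each genotype were equal under both letters, and genotype was a term of the fit. Nothing in the labels states that each tumour is from its own animal, and p-values here therefore cover the spread among these samples alone, which may be technical.

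Tumours of Eµ-Myc mice arise from precursor and immature B cells in lymph nodes, spleen and marrow. A lymphoma is a mixed tissue: beside the malignant B cells it holds fibroblasts and reticular cells that lay down collagen and secrete chemokines, blood and lymph vessels, macrophages, granulocytes and T cells. In RNA from whole tumours, fewer cells of a type and less RNA per cell cannot be told apart. Values per tumour below are normalized probe signals on the log2 scale, given in the order Wrn L1, Wrn L2, Eµ-Myc L1 and Eµ-Myc L2 for L tumours and Wrn E3, Wrn E6, Eµ-Myc E8 and Eµ-Myc E11 for E tumours. Differences are L minus E on the same scale with their standard error, and a probe counted as called at a limma adjusted p under 0.05.

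Between 10607 and 11369 of 25697 probes were detected per array, and the median signal lay between 49.9 and 52.8. The difference between the letters was -97.75 in detected probes (exact two-sided permutation p = 0.667, n = 4 and 4) and -1.45 in median signal (exact p = 0.111). The smallest p that the 36 orders within genotype allow is 0.0556, so this test could not pass 0.05 and does not show that the letters were alike. Correlations over the tested probes averaged 0.963 between tumours of the same letter and 0.960 between tumours of different letters (exact permutation p = 0.278). Pairs of L tumours averaged 0.957 and pairs of E tumours 0.969. Over the tested probes the median difference was 0.011. Of 11 tested pan-B cell genes 8 had negative differences, with a median of -0.05. The summed linear signal of the 13 list genes on the array was 20144 to 33193 in L tumours and 23268 to 33118 in E tumours. Genes of the labelled cell type were thus expressed under both letters.

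The letters were not balanced for sex-linked genes. By one of its probes Xist, the RNA that silences an X chromosome in female cells, was detected in no L tumour, at 4.18 to 4.37, and in all 4 E tumours, at 7.33, 4.94, 7.46 and 5.17. Eif2s3y, a translation factor gene on the Y chromosome, was 8.36, 7.85, 8.15 and 8.16 in L tumours, against 4.21, 7.37, 4.35 and 7.79 in E tumours, and was not detected in Wrn E3 and Eµ-Myc E8. Wrn E6 and Eµ-Myc E11 thus gave signal for both genes. Kdm5d, a histone demethylase gene on the Y chromosome, was detected in all 4 L tumours, at 5.06 to 5.87, and in 1 of the 4 E tumours, Wrn E6, at 5.36. List medians without Wrn E3 and Eµ-Myc E8 are therefore given beside most cell type lists below, and as a range for the pathway lists. The E tumours then left are Wrn E6 and Eµ-Myc E11. Of the 8 tumours, Wrn E6 had the highest levels of the stroma and endothelial lists and Eµ-Myc E11 that of the granulocyte list. Larger differences for these lists in that fit are therefore no check on them. A second Xist probe was detected in no L tumour and in 3 of the 4 E tumours. Xist was thus detected under 1 letter only, whereas Eif2s3y was detected in all 4 L tumours and also in Wrn E6 and Eµ-Myc E11. Sex-linked signal and letter were therefore confounded in part, and the part of sex in the results below was not tested.

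**Figure D1:**
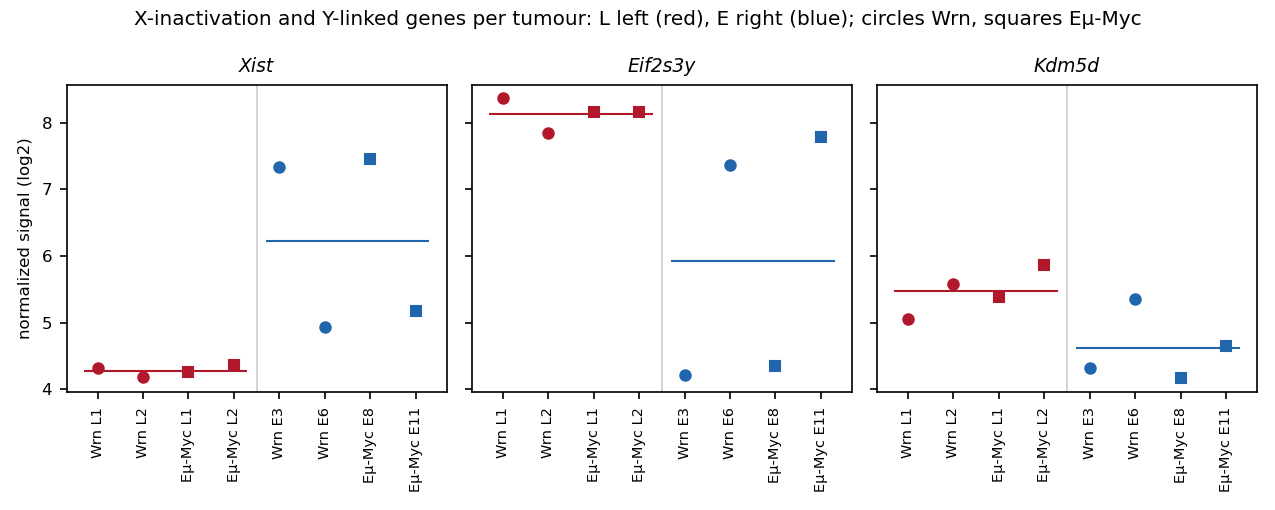
Normalized signal (log2, vertical axis) of Xist, Eif2s3y and Kdm5d in each tumour (horizontal axis), with L tumours in red left of the grey line, E tumours in blue right of it, circles for Wrn and squares for Eµ-Myc tumours, and bars at the means of 4 tumours. Xist lies between 4.18 and 4.37 in L tumours and reaches 7.33 in Wrn E3 and 7.46 in Eµ-Myc E8, the 2 tumours in which Eif2s3y is lowest.

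Only 2 of 11024 tested probes were called between the letters (0.0181%), both higher in L tumours and 0 lower. An unadjusted p below 0.05 was found for 820 probes (7.44%), of which 310 were higher (2.81%) and 510 lower (4.63%) in L tumours, where chance gives 551 on average. This split was 212 to 561 with median scaling and 269 to 559 with cyclic loess. It was more even in other settings, at 323 to 501 in the deposited lumi values and 344 to 480 with a background offset of 50. Without Wrn E3 and Eµ-Myc E8 it was 449 to 580, and with no detection filter 783 to 862 of 25697 probes. The values of the letters did not overlap for 552 probes (5.01%), 248 higher (2.25%) and 304 lower (2.76%). Positive differences made up 51.7% of all probes and negative ones 48.3%. By the brightest tested probe of each of 7665 genes, 1 gene was called (0.013%), 2.39% of genes were higher and 5.23% lower at an unadjusted p under 0.05, 1.96% were higher and 3.2% lower without overlap, and 49.3% had positive and 50.7% negative differences.

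The larger of the called differences was that of Dctn1, which encodes the largest subunit of dynactin, the complex that links the motor dynein to its cargo. Its signal was 6.66, 7.51, 7.0 and 7.41 in L tumours, against 4.37, 4.82, 5.01 and 5.09 in E tumours. Every L tumour lay well above every E tumour in both genotypes, and the probe was detected in 3 of the 4 E tumours. Dctn1 rose by 2.32 ± 0.23 (SE), with means of 7.15 ± 0.39 in L tumours and 4.82 ± 0.32 in E tumours (SD, n = 4, limma adjusted p = 0.02232). Within genotypes the difference was 2.49 in Wrn and 2.16 in Eµ-Myc tumours. This is the only tested probe of Dctn1. The other 20 tested genes of the dynein and dynactin list did not pass, and the median over all 21 was 0.02. Among them Dynll2, a light chain of dynein, had the opposite sign at -0.64 ± 0.25 (limma adjusted p = 0.6142).

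The second called probe belongs to Prpf8, the core protein of the spliceosome's catalytic centre. It read 7.88, 7.62, 7.71 and 8.06 in L tumours, against 6.24, 6.23, 6.57 and 6.40 in E tumours. The groups were tight and far apart, and the probe rose by 1.46 ± 0.17, with means of 7.82 ± 0.20 in L tumours and 6.36 ± 0.16 in E tumours (SD, n = 4, limma adjusted p = 0.04011). The other Prpf8 probe, the brighter of the pair, overlapped between the letters, at 10.02, 9.76, 9.49 and 10.28 in L tumours and 9.86, 10.13, 10.24 and 9.83 in E tumours. It differed by -0.13 ± 0.22 (95% interval -0.61 to 0.35, limma adjusted p = 0.9145), so the probes of this gene disagree. None of the 27 tested genes of the spliceosome list reached an unadjusted p under 0.05 by its brightest probe, and their median was -0.001.

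Neither call held in every fit. Dctn1 passed in 11 of 23 alternatives and the Prpf8 probe in 6 of 23, each with its sign kept in all of them. The limma adjusted p ran between 0.01273 and 0.3812 for Dctn1 and between 0.02166 and 0.4621 for Prpf8. The size of the Dctn1 difference ran from 1.496 with a background offset of 50 to 3.625 in the deposited lumi values. Without Wrn E3 and Eµ-Myc E8 Dctn1 differed by 2.19 and the Prpf8 probe by 1.504, and 0 of 11024 probes passed (limma adjusted p = 0.2264 for Dctn1 and for Prpf8).

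Ccnk, which encodes the cyclin partner of the transcriptional kinases CDK12 and CDK13, came next among the higher values. Its probe was detected in all 4 L tumours, at 6.2, 6.04, 5.36 and 6.40, and in no E tumour, at 4.29 to 4.67. The difference was 1.49 ± 0.24, at least 2.28-fold higher on the linear scale, and did not pass (limma adjusted p = 0.1867). Without Eµ-Myc L1, the lowest L tumour, it did, at 1.74 (limma adjusted p = 0.02495). That was the only 1 of 23 alternatives in which Ccnk passed, and nothing is read from it. A second Ccnk probe was not detected on any array.

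Of the further genes with higher values in L tumours and no overlap, the 7 of lowest p did not pass (limma adjusted p from 0.2608 to 0.3524 for their leading probes). Rbm10, a splicing regulator encoded on the X chromosome, differed by 1.11 ± 0.21, Srrm2, a scaffold of nuclear speckles, by 0.99 ± 0.21, and Zcchc18, also on the X chromosome, by 1.36 ± 0.26. Smarcd1, a subunit of the SWI/SNF chromatin remodelling complex, was detected in all 4 L tumours and no E tumour by each of its tested probes. The difference was at least 1.27-fold by one and 1.47-fold by the other (limma adjusted p = 0.3326 and 0.5014). A further Smarcd1 probe was detected on only 2 arrays and was not tested. The nuclear pore gene Nup155 differed by 1.67 ± 0.38, but its values were 6.34 and 6.86 in Wrn L1 and Wrn L2 and 6.31 in Wrn E3. Mgmt, which removes alkyl groups from guanine in DNA, differed by 1.03 ± 0.24, and Rapgef1, an exchange factor for Rap GTPases, by 0.85 ± 0.19.

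As with Prpf8, other probes of several of these genes did not show the difference. For Srrm2 the other 3 probes gave 0.20, -0.63 and -0.29, and the brightest of them, at -0.63 ± 0.24, had the opposite sign. For Nup155 they gave 0.43 and -0.20, and for Rbm10 a dimmer one gave 0.13. For Rapgef1 a dim probe gave 0.72 and the brightest, at 9.45 to 10.38 in L tumours and 9.48 to 10.23 in E tumours, gave -0.14. Why the probes of a gene differ was not tested.

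**Figure D2:**
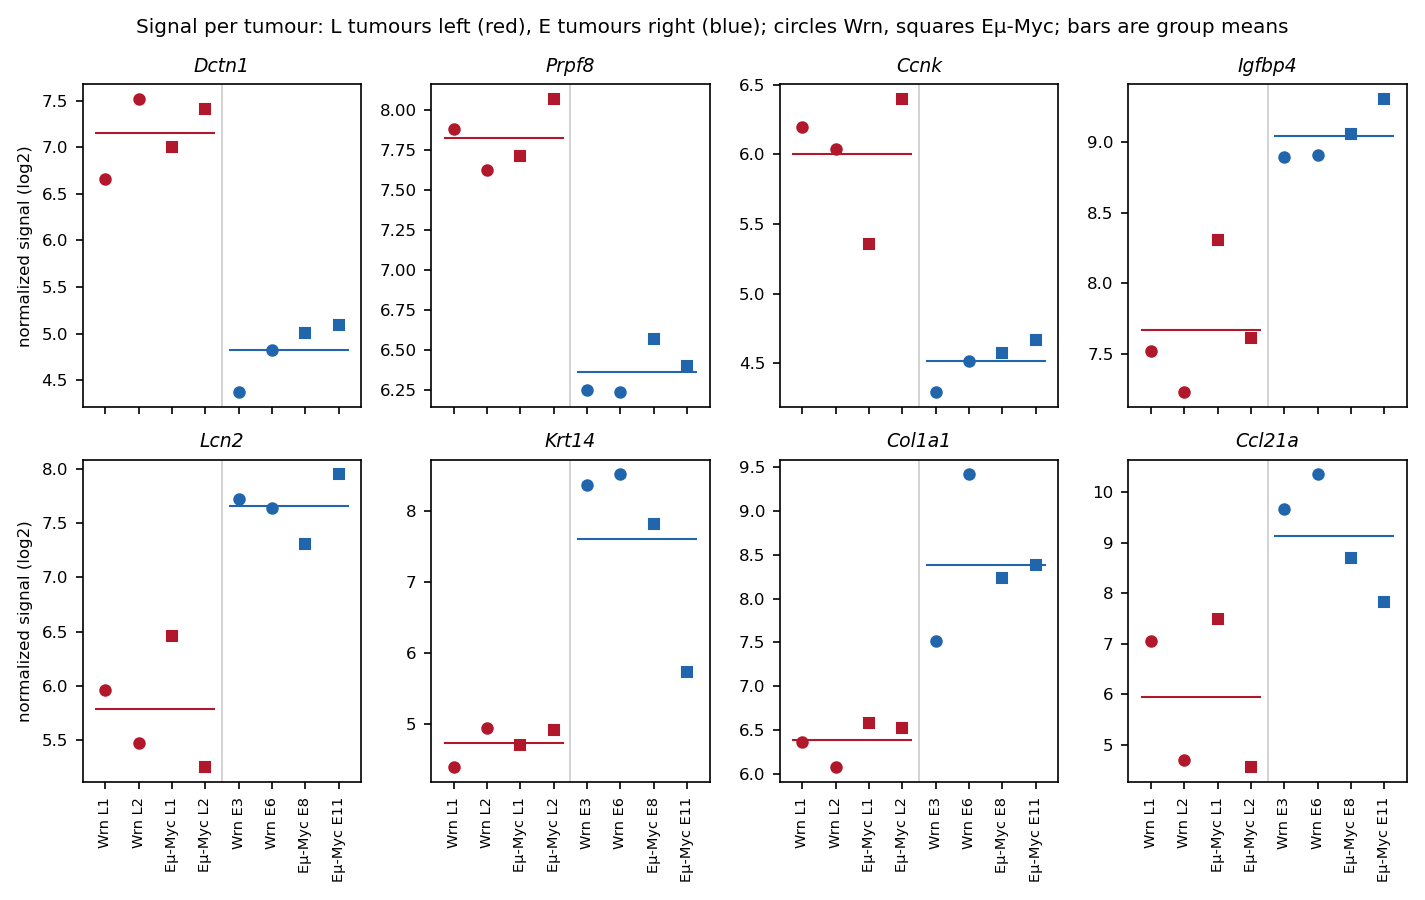
Normalized signal (log2, vertical axis, range set per gene) of 8 genes in each tumour, with L tumours in red left of the grey line, E tumours in blue right of it, circles for Wrn, squares for Eµ-Myc and bars at the means of 4 tumours. For Prpf8 the called probe is shown; none of the 8 genes has an L tumour inside the range of the E tumours, and Krt14 is at 5.72 in Eµ-Myc E11 against 7.81 to 8.52 in the other E tumours.

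Genes of fibroblasts and matrix had lower values in L tumours, without a call. Of 16 tested genes of the fibroblast and stroma list 15 had negative differences, with a median of -0.67, and 6 were below an unadjusted p of 0.05, all lower, where 5.23% of all tested genes were. The letters did not overlap for the same 6, Bgn, Ccl21a, Col1a1, Col1a2, Col3a1 and Sparc, where 3.2% of all tested genes did not. Over all tested genes the median was -0.004. This list and those of the other cell types were chosen with earlier results of these data known, so nothing is read from their counts. The list's summed linear signal was 3587 to 6435 in L tumours and 6794 to 13620 in E tumours, without overlap.

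Col1a1, the main chain of type I collagen, was 6.36, 6.07, 6.58 and 6.53 in L tumours, against 7.52, 9.42, 8.23 and 8.39 in E tumours. The L tumours lay within a narrow band and Wrn E6 was the highest of all. The difference was -2.0 ± 0.35 (limma adjusted p = 0.1985), at -2.25 in Wrn and -1.75 in Eµ-Myc tumours. Col5a1, a chain of type V collagen that starts fibrils, was 6.94, 6.68, 7.51 and 7.13 in L tumours, against 8.40, 9.90, 8.76 and 8.88 in E tumours, a difference of -1.92 ± 0.32 (limma adjusted p = 0.1867). Lox, the oxidase that crosslinks collagen, differed by -1.35 ± 0.23, with 6.12 to 6.46 in L tumours and 7.33 to 8.28 in E tumours (limma adjusted p = 0.1867). None of the 3 overlapped between the letters, and none passed the test.

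A list of all collagen genes, drawn up after the values were seen, held 12 tested members, each with a negative difference. Their median was -0.97 (-1.43 without Wrn E3 and Eµ-Myc E8), 9 were lower at an unadjusted p under 0.05, against 5.23% of all tested genes, and 6 did not overlap, against 3.2%. As the list was drawn up after the values were seen, nothing is read from these counts. The basement membrane collagens belonged to it: Col18a1 differed by -1.46 ± 0.32, Col4a1 by -0.96 ± 0.37 and Col4a2 by -0.95 ± 0.35. Of the other matrix genes, Sparc, a collagen-binding glycoprotein, differed by -1.14 ± 0.34 and the proteoglycan gene Bgn by -1.05 ± 0.27, both without overlap. Decorin (Dcn) and lumican (Lum), further small proteoglycans, overlapped at -0.23 ± 0.25 and -0.26 ± 0.31, and the fibroblast receptor gene Pdgfra did so at -0.18 ± 0.29.

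The list's medians were given by genotype as well, and their difference was not tested. The median was -1.20 in Wrn tumours, where all 16 genes were negative, and -0.21 in Eµ-Myc tumours, where 10 were. Wrn E6 had the highest list level of the 8 tumours, and without it the median was -0.39, with 14 negative genes and again 6 below an unadjusted p of 0.05. Without Wrn E3 and Eµ-Myc E8 it was -0.92, with all 16 negative and 8 below that p. Of all 11024 tested probes 375 were lower at that p without Wrn E6 and 580 without Wrn E3 and Eµ-Myc E8. With all 8 tumours 510 were.

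Endothelial genes also had lower values. All 13 tested members had negative differences, with a median of -0.55. Of these 6 were below an unadjusted p of 0.05, all lower, against 5.23% of all tested genes, and 5 did not overlap, against 3.2%. Egfl7, secreted by endothelial cells, was 9.69, 9.30, 9.62 and 9.52 in L tumours, against 10.12, 9.96, 10.15 and 10.28 in E tumours. The groups did not overlap, at a difference of -0.59 ± 0.17 (limma adjusted p = 0.4832). Ramp2, a subunit of the adrenomedullin receptor of vessels, differed by -0.95 ± 0.28, the transcription factor gene Sox18 by -0.97 ± 0.31, the junction gene Esam by -0.87 ± 0.28 and the VEGF receptor gene Flt1 by -0.69 ± 0.22. Pecam1, also made by leukocytes, was near 0 at -0.15 ± 0.22. Von Willebrand factor (Vwf), made by endothelium and megakaryocytes, was 6.37 to 6.71 in L tumours and 7.21 to 7.82 in E tumours, a difference of -0.89 ± 0.19 (limma adjusted p = 0.3064). The list's summed linear signal was 1882 to 2316 in L tumours and 2895 to 3932 in E tumours. Its median was -0.68 in Wrn and -0.38 in Eµ-Myc tumours, -0.40 without Wrn E6, and -0.90 without Wrn E3 and Eµ-Myc E8, where all 13 genes stayed negative.

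Keratins of basal epithelium had their high values in 3 E tumours. Krt14, one of these, was detected in 2 of the 4 L tumours, at 4.38, 4.93, 4.70 and 4.91. It reached 8.36, 8.52, 7.81 and 5.72 in E tumours, a difference of -2.87 ± 0.48 (limma adjusted p = 0.1867). Krt17 was detected in no L tumour and in all 4 E tumours, at 7.51, 7.16, 6.77 and 4.95. It was thus tested only through the E tumours, where it was high. Its difference was -2.23 ± 0.42, at least 3.402-fold lower in L tumours on the linear scale (limma adjusted p = 0.2608). Eµ-Myc E11 had the lowest value of the E tumours for both genes. Without it both passed, Krt14 at -3.47 and Krt17 at -2.75 (limma adjusted p = 0.00252 and 0.003347). This was the only 1 of 23 alternatives in which they passed. It left out the E tumour nearest to the L tumours, so nothing is read from it.

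Of 5 tested genes of the epithelial list 4 had negative differences and an unadjusted p under 0.05, where 5.23% of all tested genes were lower at that p. Trp63, the transcription factor of basal epithelium, was 4.21 to 4.85 in L tumours, against 6.81, 5.78, 5.31 and 4.18 in E tumours. Krt8, of simple epithelium, was 4.57 to 5.0 in L tumours, against 6.14, 6.19, 5.61 and 4.56 in E tumours. Both had the same 3 E tumours above all L tumours. The list's median of -1.10 became -0.56 without Wrn E3 and Eµ-Myc E8, and its summed linear signal was 263 to 287 in L tumours and 300 to 909 in E tumours. That sum covers the 12 list genes on the array, tested or not. The 10 dendritic cell genes, none of them tested, summed to 199 to 236 in L tumours, so sums this low are largely background. Krt10, of the family but not of the list, was 7.42 to 9.23 in L tumours and 8.06 to 9.14 in E tumours, a difference of -0.25 ± 0.38. Over the 5 tested keratin genes, taken as a family after the values were seen, the median was -0.79. Medians were -0.41 for 3 laminin genes and -0.10 for 8 matrix metalloproteinase genes, families chosen likewise.

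Genes of granulocytes, whose granules hold lipocalin, lactoferrin and peroxidase, were lower in value in L tumours in 9 of 9 tested members, without a call. The median was -1.10, 6 were lower at an unadjusted p under 0.05, against 5.23% of all tested genes, and 5 did not overlap, against 3.2%. Nothing is read from these counts, as the filter also let in genes detected in E tumours only. Lcn2, the iron-scavenging lipocalin, which epithelial cells and macrophages can also make, was 5.96, 5.47, 6.46 and 5.25 in L tumours, against 7.73, 7.64, 7.31 and 7.95 in E tumours. It differed by -1.87 ± 0.28 (limma adjusted p = 0.1415), evenly in both genotypes at -1.97 and -1.78.

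For the S100 alarmins a single tumour stood out. S100a9 was 5.41, 4.62, 5.27 and 4.54 in L tumours, against 6.26, 6.34, 6.28 and 8.23 in E tumours, a difference of -1.82 ± 0.42 (limma adjusted p = 0.3548). S100a8 was likewise highest in Eµ-Myc E11, at 10.73, and differed by -2.02 ± 0.57. The other 3 E tumours nevertheless lay above every L tumour for both genes. Mpo, the myeloperoxidase, was detected in no L tumour and in all 4 E tumours, at least 1.59-fold lower in L tumours. It was thus tested only through the E tumours, where it was high, and nothing is read from its sign. Without Eµ-Myc E11 the list's median was -0.65, with all 9 genes negative and 5 below an unadjusted p of 0.05. Without Wrn E3 and Eµ-Myc E8 it was -1.45, again with 6 of 9 below that p. Of all 11024 tested probes 371 were lower at that p without Eµ-Myc E11 and 580 without Wrn E3 and Eµ-Myc E8. With all 8 tumours 510 were. The summed linear signal was 385 to 657 in L tumours and 901 to 3225 in E tumours.

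**Figure D3:**
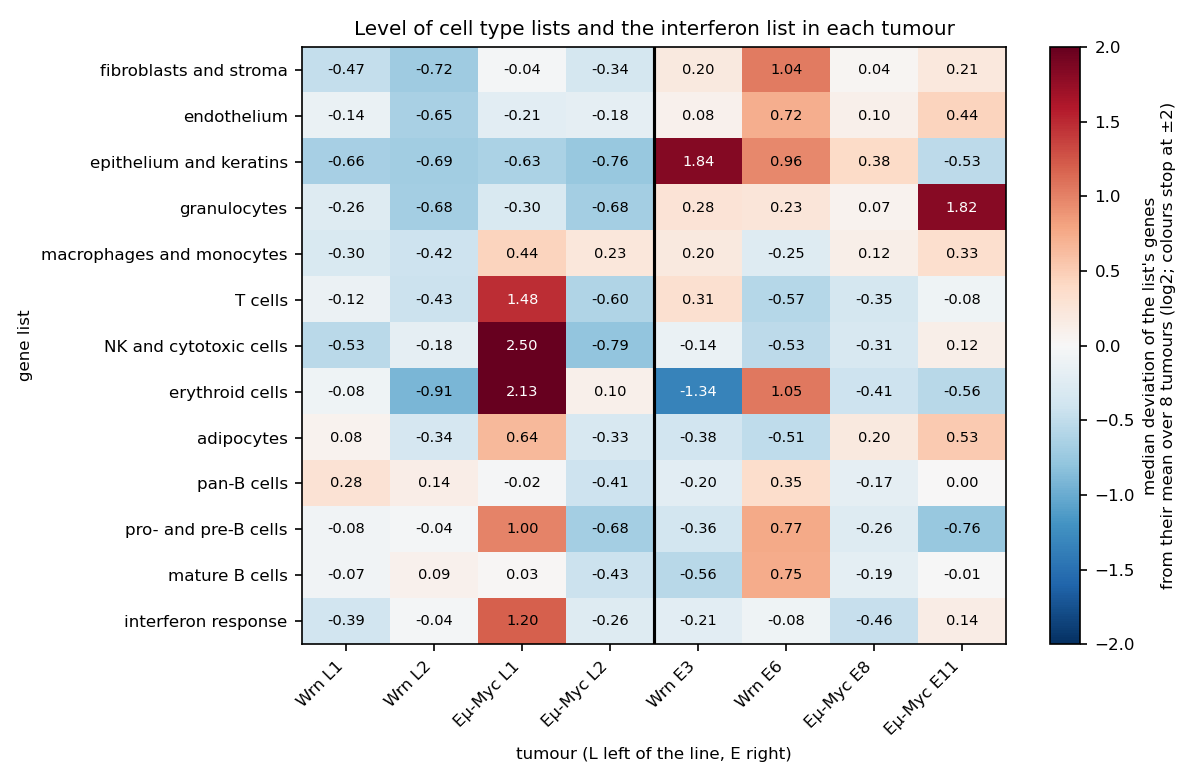
Median deviation (log2) of the tested genes of 13 lists, in rows, from each gene's mean over the 8 tumours, in columns with L tumours left of the line and E tumours right of it; colours stop at ±2. The stroma list is lowest in Wrn L2 and highest in Wrn E6, the granulocyte list is highest in Eµ-Myc E11, and the T cell, NK, erythroid and interferon lists are highest in Eµ-Myc L1.

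Chemokines and a growth factor binding protein were also among the lower values. Ccl7, which attracts monocytes, was 5.43, 5.56, 6.29 and 5.72 in L tumours, against 7.63, 7.60, 7.25 and 6.91 in E tumours, a difference of -1.60 ± 0.25 (limma adjusted p = 0.1699). Ccl21a, the chemokine of lymph node reticular cells and lymph vessels that draws cells bearing Ccr7, was 7.05, 4.70, 7.50 and 4.55 in L tumours, against 9.68, 10.36, 8.70 and 7.83 in E tumours. It differed by -3.19 ± 0.72 (limma adjusted p = 0.3393). Only Wrn L1 and Eµ-Myc L1 of the L tumours had a detected signal. Probes of Ccl21b and Ccl21c gave -2.75 and -2.89, but these genes are near-identical copies and their probes may read each other's RNA. Cxcl1, which attracts neutrophils, differed by -0.93 ± 0.27. Of 20 tested CC and CXC chemokine genes 12 had negative differences. At an unadjusted p under 0.05, 5 were lower and 0 higher, against 5.23% and 2.39% of all tested genes. The median was -0.88 in Wrn tumours, with 16 genes negative, and -0.01 in Eµ-Myc tumours, with 10 negative. The list was made after the values were seen, so nothing is read from its counts. Ccr7 itself, the receptor, overlapped at -0.35 ± 0.35.

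Igfbp4, which binds insulin-like growth factors, was 7.52, 7.23, 8.31 and 7.62 in L tumours, against 8.90, 8.91, 9.06 and 9.31 in E tumours. Of all lower values its unadjusted p was the lowest, at -1.38 ± 0.20 (limma adjusted p = 0.1415), and a second probe gave -1.14 ± 0.21. The other tested members of its family, Igfbp3, Igfbp5 and Igfbp7, were also negative, at -0.39 ± 0.32, -1.13 ± 0.50 and -0.72 ± 0.31, and the median of the 4 was -0.92. Plekha5, a lipid-binding protein gene, differed by -1.83 ± 0.27 (limma adjusted p = 0.1415), the mitochondrial gene Echdc2 by -1.89 ± 0.32 (limma adjusted p = 0.1867) and Wwc2, a regulator of the Hippo pathway, by -1.38 ± 0.24 (limma adjusted p = 0.1985). Without Eµ-Myc L1, 8 probes passed, and the 5 of them lower in L tumours were those of Igfbp4, Lcn2, Ccl7, Ccl21a and Ccl21c (limma adjusted p = 0.02956, and 0.03778 for Ccl21a). That tumour had the highest value of the L tumours for Igfbp4, Lcn2, Ccl7 and Ccl21a, which passed in no other alternative.

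Macrophage genes overlapped between the letters. Of 17 tested macrophage and monocyte genes 11 had negative differences, with a median of -0.11 (-0.17 without Wrn E3 and Eµ-Myc E8). The complement genes C1qa, C1qb and C1qc differed by -0.01, 0.22 and 0.05, and Lyz2, lysozyme, by 0.01. Within Wrn tumours 16 of the 17 were negative (median -0.37) and within Eµ-Myc tumours 6 were (median 0.19). Hmox1, the haem-degrading enzyme, was the sole member with an unadjusted p under 0.05, at -0.61 ± 0.24. Adipocyte genes had a median of 0.10 over 5 tested members and muscle genes 0.21 over 3 (-0.10 and 0.03 without Wrn E3 and Eµ-Myc E8), and both platelet genes tested, Vwf and Pf4, were negative, with a median of -0.61. None of the dendritic cell genes was tested.

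T cell, cytotoxic, red cell and interferon genes had their highest list levels in Eµ-Myc L1. Nkg7, of cytotoxic granules, was 8.27 in that tumour, against 4.44 to 4.92 in the other L tumours and 4.55 to 5.16 in E tumours. Cd3g, of the T cell receptor complex, was 7.03 there and at most 5.02 elsewhere, and the chemokine gene Cxcl9, induced by interferon gamma, was 9.47 there and at most 5.26 elsewhere. The interferon-induced GTPase gene Igtp was 9.58 there, against 6.82 to 7.25 in the other L tumours and 5.89 to 7.34 in E tumours. Alas2, of haem synthesis in red cells, was 8.84 there and at most 7.31, in Wrn E6, elsewhere. Of the 6 tested T cell genes 4 had positive and 2 negative differences. The one of lowest p, Thy1, also on the stroma list, differed by -0.60 ± 0.40. It was 7.97 in Eµ-Myc L1 and 7.98 in Wrn E6. The medians were 0.46 for 6 T cell genes, 0.46 for 3 NK and cytotoxic genes, 0.57 for 5 erythroid genes and 0.20 for 21 interferon response genes, with 0 genes below an unadjusted p of 0.05 in any of them. Without Eµ-Myc L1 these medians were -0.35, -0.21, 0.11 and -0.14, and without Wrn E3 and Eµ-Myc E8 they were 0.51, 0.33, 0.29 and 0.09.

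**Figure D4:**
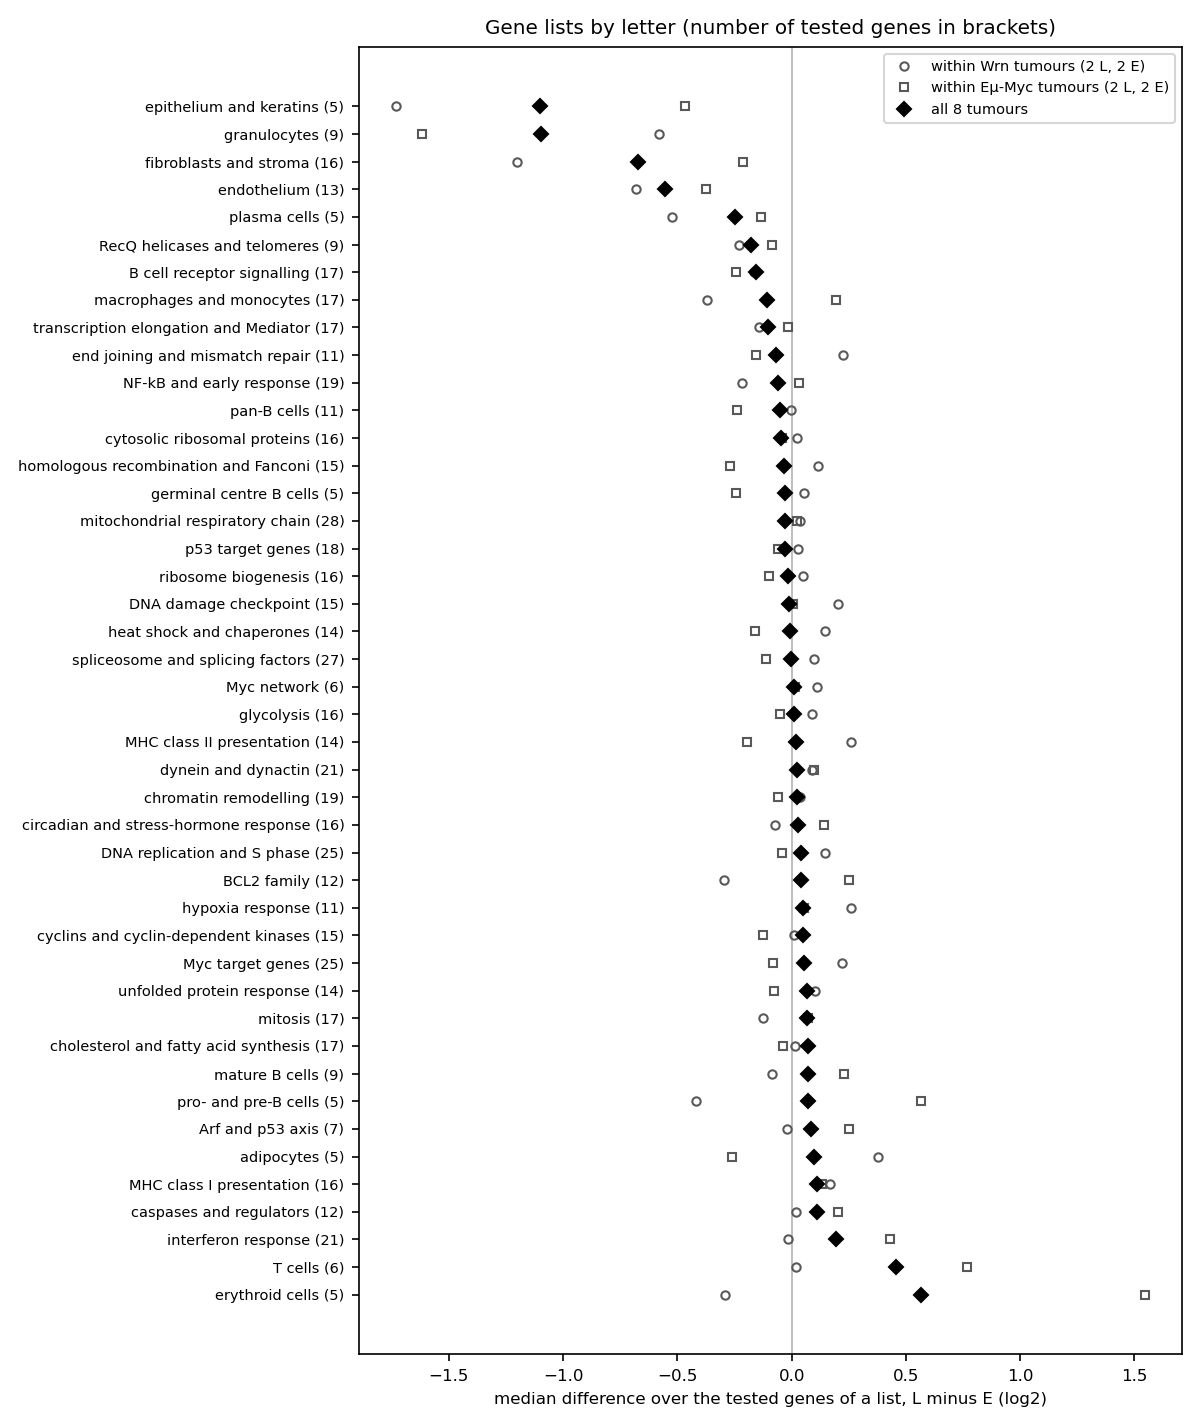
Median difference, L minus E (log2, horizontal axis), over the tested genes of each cell type and pathway list with at least 5 of them (vertical axis, families chosen after the values were seen left out, number of genes in brackets); filled diamonds are all 8 tumours, open circles the Wrn tumours and open squares the Eµ-Myc tumours. Among the lists drawn, the epithelial, granulocyte, stromal and endothelial ones have the lowest medians, from -1.10 to -0.55, and the pathway lists lie between -0.18 and 0.20. The lists drawn were chosen with earlier results of these data known.

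No gene of a B cell stage list was called. The median difference was 0.07 over 5 pro- and pre-B cell genes, 0.07 over 9 mature B cell genes and -0.03 for 5 germinal centre genes. For 5 plasma cell genes it was -0.25. These medians moved with single tumours left out, between -0.31 and 0.36 for pro- and pre-B cells, -0.25 and 0.26 for mature B cells, -0.20 and 0.16 for germinal centre and -0.58 and 0.03 for plasma cells. Without Wrn E3 and Eµ-Myc E8 they were -0.17, -0.23, -0.27 and -0.47. The signs of the pro- and pre-B and mature B cell medians thus turned. Vpreb1, of the surrogate light chain of pre-B cells, was 8.61 in Eµ-Myc L1 and between 4.55 and 6.37 in the other 7 tumours, a difference of 1.16 ± 0.69, while Vpreb3 was 11.64 to 12.70 in L tumours and 11.77 to 13.12 in E tumours. Bcl6, the germinal centre repressor, differed by -0.79 ± 0.30 and Mzb1, a chaperone of antibody-secreting cells, by -0.75 ± 0.32, both with overlap (limma adjusted p = 0.611 and 0.6593). Of 17 genes of B cell receptor signalling 14 were negative, with a median of -0.16 and 0 below an unadjusted p of 0.05. Among these Pik3cd, the lymphoid PI3-kinase, differed by -0.67 ± 0.30 and the phospholipase gene Plcg2 by -0.54 ± 0.25.

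Myc itself was 8.77, 8.5, 6.92 and 8.91 in L tumours, against 9.13, 8.73, 9.08 and 8.77 in E tumours. Eµ-Myc L1 was the one low tumour, and the difference was -0.65 ± 0.38 (95% interval -1.51 to 0.20, limma adjusted p = 0.7627). Over 25 tested Myc target genes the median was 0.05 and over 6 genes of the Myc network 0.01. Wrn, the targeted gene of the second genotype, was 7.03, 7.33, 8.45 and 7.56 in L tumours and 7.48, 7.46, 8.06 and 8.21 in E tumours, a difference of -0.21 ± 0.22. The sources used here do not place its probe relative to the deletion, so it checks no label.

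Cdkn2a, the locus of p16Ink4a and p19Arf, was 9.53, 10.06, 9.11 and 10.02 in L tumours, against 10.70, 10.45, 11.08 and 6.91 in E tumours. The 3 other E tumours lay above every L tumour and Eµ-Myc E11 far below, so the mean difference was -0.10 ± 0.74. A second Cdkn2a probe was likewise lowest in Eµ-Myc E11, at 6.23, and highest in the other 3 E tumours, at 10.08 to 10.55. Cdkn1a, the p53-induced inhibitor p21, was highest in that tumour at 8.85 and differed by -0.67 ± 0.45. The other Cdkn1a probes gave -0.40 and -0.26. Mdm2, the ligase of p53, differed by 0.20 ± 0.27, or -0.42 in Wrn and 0.83 in Eµ-Myc tumours. Bmi1, a Polycomb repressor of Cdkn2a, was 6.64, 6.59, 7.10 and 7.15 in L tumours, against 6.36, 5.40, 6.34 and 6.23 in E tumours, a difference of 0.79 ± 0.22 (limma adjusted p = 0.4645). Its values did not overlap, with Wrn E6 the lowest. The p53 target Bbc3 was 6.41 to 6.77 in L tumours and reached 8.59 in Eµ-Myc E11, a difference of -0.82 ± 0.38. Over 18 p53 target genes the median was -0.03, and over 7 genes of the Arf and p53 axis it was 0.09.

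Casp1, the inflammatory caspase, was 10.11, 9.61, 10.99 and 8.94 in L tumours, against 8.70, 8.53, 8.82 and 7.64 in E tumours. Each L tumour exceeded each E tumour, at 1.49 ± 0.42 (limma adjusted p = 0.489). The 12 tested caspases and regulators had a median of 0.11 and the 12 BCL2 family genes one of 0.04, with Bcl2l11, the death gene Bim, at -0.59 ± 0.23 by its brightest probe, -0.63 by another and 0.29 by a dim one.

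The remaining pathways had small medians. Without Wrn E3 and Eµ-Myc E8 the medians of all 31 pathway lists ran from -0.42, for B cell receptor signalling, to 0.24, for end joining and mismatch repair, and that of the BCL2 family was -0.18. Medians were 0.05 for cyclins and their kinases, 0.04 for DNA replication, 0.07 for mitosis, -0.01 for the DNA damage checkpoint, -0.03 for homologous recombination and Fanconi genes, -0.07 for end joining and mismatch repair and -0.18 for RecQ helicases and telomere genes. In the last list 8 of 9 genes were negative, and Recql5, a helicase of the same family as Wrn, was 6.67 to 7.0 in L tumours and 7.08 to 7.62 in E tumours, at -0.48 ± 0.17 (limma adjusted p = 0.6038). Ribosome biogenesis and cytosolic ribosomal protein genes had medians of -0.02 and -0.05, glycolysis 0.01, the respiratory chain -0.03, cholesterol and fatty acid synthesis 0.07, the unfolded protein response 0.07, heat shock and chaperones -0.01, hypoxia 0.05, circadian and stress-hormone genes 0.03, chromatin remodelling 0.03 and transcription elongation and Mediator -0.10. Within metabolism Hk2, hexokinase 2, did not overlap, at 9.49 to 10.20 in L tumours and 10.22 to 10.70 in E tumours (-0.55 ± 0.21, limma adjusted p = 0.611). MHC class I genes had a median of 0.11, class II genes 0.02 and NF-kB and early response genes -0.06. Psmb8, an immunoproteasome subunit, and Fos, of the early response, did not overlap, at 0.33 ± 0.17 and -0.47 ± 0.18.

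The letter difference was next examined inside each genotype, with 2 L tumours against 2 E tumours. No probe was called in Wrn tumours, with 590 at an unadjusted p under 0.05 (5.35%), and none in Eµ-Myc tumours, with 794 (7.2%). The interaction of letter and genotype had 0 calls and 554 probes at an unadjusted p under 0.05 (5.03%). By the layout of the labels it also sets replicates 1 and 3 against replicates 2 and 4. Genes with the lowest interaction p included the mast cell gene Hdc, histidine decarboxylase, and the platelet chemokine Pf4. Hdc was 5.37, 5.58, 7.42 and 6.96 in L tumours, against 6.30, 6.84, 5.72 and 6.02 in E tumours, so the difference was -1.09 in Wrn and 1.31 in Eµ-Myc tumours. Pf4 differed by -1.67 in Wrn and 1.00 in Eµ-Myc tumours. Slc47a1, a transporter, went the other way at 1.10 and -3.14, and 1110017D15Rik did so at 3.17 and -0.66. None of these passed the test of the interaction (limma adjusted p = 0.9366).

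**Figure D5:**
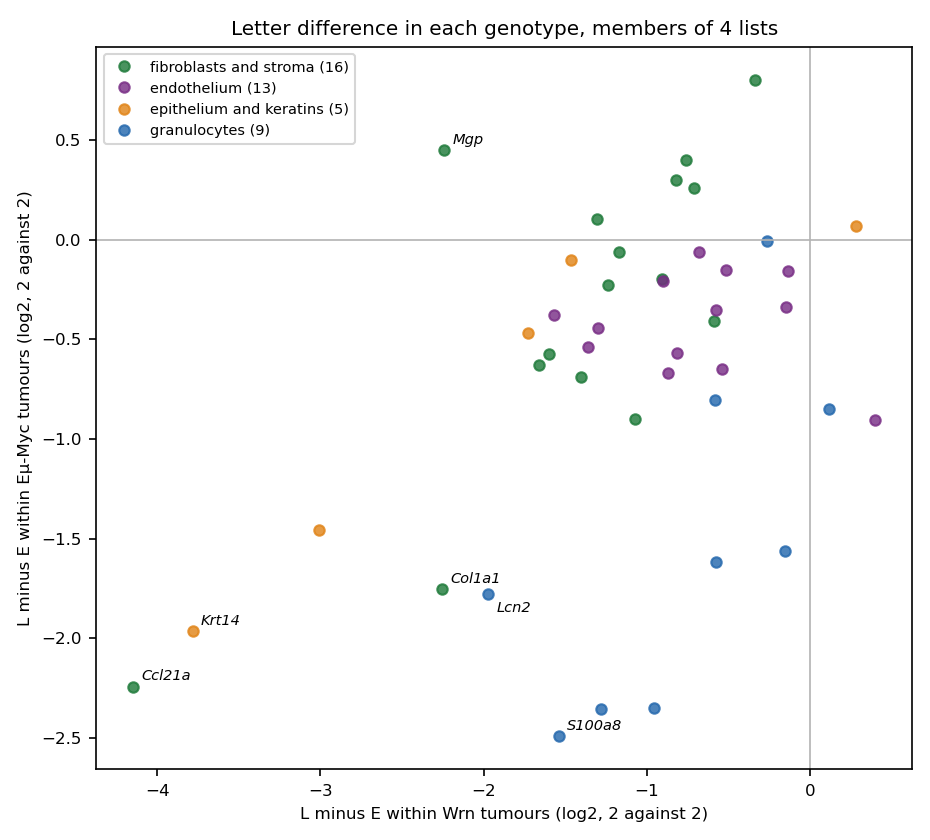
Difference L minus E (log2) within Wrn tumours (horizontal axis) against that within Eµ-Myc tumours (vertical axis), each of 2 against 2 tumours, for the tested genes of 4 lists; each point is a gene. Most points lie below 0 on both axes, with stromal genes reaching further in Wrn tumours and granulocyte genes in Eµ-Myc tumours.

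Detection calls were compared last. Of 25697 probes 11 were detected in all 4 L tumours and no E tumour, and 11 in all 4 E tumours and no L tumour. Those of L tumours include probes of Ccnk, Smarcd1 and the transcription factor gene Ets1. Those of E tumours include Krt17, Mpo, Xist, the small GTPase gene Rab15 and the growth factor receptor gene Igf1r. Ets1 was at least 1.28-fold higher in L tumours, and Rab15 at least 2.12-fold and Igf1r at least 1.44-fold lower, none past the test (limma adjusted p = 0.5622, 0.3524 and 0.5833). The brightest Ets1 probe, detected in all 8 tumours, gave -0.04.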

How the data were processed

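Per the file headers, the deposited non-normalized table gives each probe's average bead intensity (linear) and a detection p-value per array. The lumi values, also intensity as deposited, and the Illumina GUI values, deposited as a score whose square root tracks log2 of the lumi values within 0.0102 above 1000, were alternatives. The design had assumed a linear or log2 GUI scale. The sources used here do not state software settings. The tables were joined by the ranks of 25697 probes, all one to one. Symbols came from the platform annotation, updated to assembly GRCm38.p6 (23962 by gene number, 9 by accession, 7 unchanged, 1719 unnamed), which also gave chromosomes. Not analysed here was Trp53.

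Signals were normalized with neqc (limma 3.58.1, R 4.3.3, offset 16, log2), which understates changes of dim probes. Tested were 11024 probes (7665 genes) with a detection p under 0.01 on 4 or more of 8 arrays, with lmFit (genotype and letter) and eBayes, L minus E, two-sided, Benjamini-Hochberg over all probes. A probe detected in all 4 tumours of 1 letter and none of the other was thus tested only through the letter where it was high. The fit was tested on simulated data. A fold given as at least N sets the bright group's mean against the dim group's mean of, per array, the higher of the probe's value and the lowest detected value. The 49 gene lists, by each gene's brightest tested probe, are described without a set test. A list's summed linear signal instead adds the brightest probe of every list gene on the array, tested or not, each with the offset in it. The members and lists were chosen with earlier results of these data known. Named were up to 15 called probes per direction, with places up to 10 filled by unadjusted p among probes without overlap, other probes of called genes, Wrn, Myc, Cdkn2a, Cdkn1a and Mdm2, 2 members per list, 5 interaction probes per direction, sex markers and bright markers of other cells. Further list members, the families of collagens, chemokines and Igfbp genes, and genes by detection were chosen after their values were seen. Same-numbered replicates did not deviate together (correlations -0.102 and -0.208), and numbers were not used as pairs. Each group holds 2 tumours, whose deviations mirror each other, so only 2 distinct values arise and this check cannot settle pairing. The join used numpy 2.4.6 and scipy 1.17.1, with pandas 2.3.3, in Python 3.11.15, and the figures matplotlib 3.10.9.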

Additional observations from a re-analysis of the deposited data

Results flagged for a closer look

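For 11 of 252 checks (126 named probes in 2 letters, 4.37%) 1 tumour lay apart from the other 3 of its letter by Dixon's ratio, where chance flags about 1 in 20. In L tumours Eµ-Myc L1 stood high for Igtp (9.58), Ltb (7.25), Nkg7 (8.27) and Mb (6.73), and Eµ-Myc L2 low for Zcchc18 (7.70, against 8.89 to 8.94). In E tumours Eµ-Myc E11 stood high for S100a9 (8.23), Shmt2 (9.30) and Atp5c1 (12.90, against 12.76 to 12.78) and low for the Cdkn2a probes (6.91 and 6.23). Wrn E6 stood low for Bmi1 (5.40, against 6.23 to 6.36).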

How the results depend on the processing

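The 2 calls, both higher, became 0 in the deposited lumi values, the square root of the GUI values, with offset 50 and without background correction. They also became 0 with detection on all 8 arrays, with no filter and with a replicate block beside genotype. The same held without Eµ-Myc E8 and Wrn E3 (this fit and a detection p of 0.05 were chosen after seeing the data). A count of 1 was left with median scaling, with trend and robust eBayes and with the brightest probe per gene. Dctn1, detected in 3 of the 4 E tumours, was not tested with detection on all 8 arrays, where Prpf8 had a limma adjusted p of 0.05357. With the brightest probe per gene the called Prpf8 probe was not tested. The replicate block called 0 probes, with 217 higher and 417 lower at an unadjusted p under 0.05. Whether the numbers pair the tumours was not settled. Without each tumour in turn the calls ran from 0 to 8 (higher 0 to 3, lower 0 to 5): 8 without Eµ-Myc L1 and 5 without Eµ-Myc E11. Within Wrn tumours the count was 1 in lumi values and 0 to 4 with a tumour left out, within Eµ-Myc tumours 1 and 0 to 19 (19 without Eµ-Myc L2), and for the interaction 1 and 0 to 2; a lone tumour of a cell was then assumed to vary like the others. Slide and position are not given, so the planned block for them was not run.

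Signs turned for uncalled probes only, and the cause was not tested. With array weights Vpreb3 gave 0.153 and Hdc -0.087, and in lumi values Mb gave -0.310. Without Eµ-Myc E8 and Wrn E3, Per3 gave 0.034, Hdc -0.100 and Cdkn2a 1.001 and 1.000. With single tumours left out the differences ran over these ranges: Cd3g -0.044 to 0.988, Nkg7 -0.208 to 1.323, Ccr7 -0.685 to 0.004, a dim Cdkn1a probe -0.563 to 0.045, Ccl5 -0.256 to 1.089, Pf4 -0.715 to 0.137, the uncalled Prpf8 probe -0.285 to 0.032, Myl1 -0.043 to 0.632, Mb -0.327 to 0.614, Vpreb3 -0.386 to 0.158, Hdc -0.223 to 0.459 and the Cdkn2a probes -1.075 to 0.596 and -1.105 to 0.621.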

Other observations

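Whole chromosomes differed between single tumours. With each gene's deviation taken from its median over the 8 tumours, the 256 tested genes of chromosome 12 had a median deviation of -0.61 in Eµ-Myc L1, where 87.5% of them lay below their median, and between -0.04 and 0.08 in the other 7 tumours. The 411 genes of chromosome 17 had 0.31 in Eµ-Myc E11 and between -0.09 and 0.02 in the others, and the 497 genes of chromosome 5 had 0.31 in Eµ-Myc L2 and between -0.07 and 0.07 in the others. On chromosome 19 Wrn L1 was at -0.37, with 89.2% of 286 genes below their median, Wrn L2 at -0.08, Wrn E3 at -0.11 and Eµ-Myc E8 at -0.20, while the remaining 4 tumours were at 0.20 to 0.23. Chromosome 13 spread from -0.28 in Eµ-Myc L2 to 0.26 in Wrn L1.

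These tumours weigh on the letter counts of their chromosomes. At an unadjusted p under 0.05, 37 genes of chromosome 17 were lower and 0 higher in L tumours (9.0% lower, against 5.23% of all tested genes), and without Eµ-Myc E11 the counts were 18 and 4. On chromosome 12, 22 were lower and 2 higher, and without Eµ-Myc L1 12 and 10. Chromosome 4 had 46 lower and 7 higher of 481 genes (9.56% lower), and 33 to 46 lower whichever tumour was left out. The chromosomes were looked at after the values were seen, and the origin of the shifts was not tested.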
